A study of Mus musculus with 8 samples.

Results

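The loci of 3 developmental transcription factors, Irx2 on chromosome 13, Msx1 on chromosome 5 and Nr2f2 on chromosome 7, were examined for chromatin accessibility in young and old mouse hematopoietic stem cells (HSCs). They comprise 38 of the 126871 peaks in the deposited table: 5 at Irx2, 18 at Msx1 and 15 at Nr2f2, each lying fully inside a fixed span of the mouse mm9 build. The spans run from 72680000 to 72860000 (Irx2), from 38080000 to 38310000 (Msx1) and from 77390000 to 77560000 (Nr2f2). The loci were selected on the difference between these same old and young libraries, as places that were more open in old HSCs. Their fold changes and calls are therefore a description, without a test.

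Accessibility was measured by ATAC-seq, in which a transposase cuts and tags open DNA, so that the reads counted over a peak follow how open it is. The cells were bone marrow HSCs of C57BL/6 mice, sorted as LSK CD150+ CD48- cells (lineage-negative, Sca-1+ Kit+ cells, further gated on SLAM-family receptors). There were 4 libraries labelled old and 4 labelled young, with no other treatment or genotype named. Neither the ages nor the sex of the mice, nor whether a library came from a single mouse, are in the labels used here, so age and other features in which the groups may differ cannot be told apart, and the spread between libraries may be technical. In bulk libraries, a higher level in more cells and more open DNA in each cell also cannot be told apart. Total counts were 4200905 to 5129684 per library. Old replicate 4 lay between the groups over the 22799 peaks called without it. There it had covered 0.499 of the log2 CPM distance that separates the young mean from old replicates 1 to 3. Old replicates 1 to 3 entered both the calls and the scale, which tends to place a left-out library below 1. The same was not computed for the other old libraries, so whether old replicate 4 stood apart was not tested. The identity of the sorted cells was not checked at marker genes here, because no mm9 annotation was used.

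Irx2 belongs to the Iroquois family of homeobox factors and sits in a chromosomal cluster with its relatives Irx1 and Irx4, which pattern the heart, limb and nervous system. Msx1 is a muscle segment homeobox factor, mainly a repressor, that acts downstream of BMP signals in tooth, palate and limb development. Nr2f2 encodes COUP-TFII, an orphan nuclear receptor that specifies venous and lymphatic endothelium. Such developmental regulators commonly carry repressive Polycomb marks in cells that do not use them. In the RefSeq annotation of GRCm38.p6 the next protein-coding genes are Irx1 and Irx4 around Irx2, Cytl1 and Stx18 around Msx1, and Arrdc4 and Gm44812 around Nr2f2. Each of the 3 genes also overlaps a noncoding RNA gene there, Gm20554 at Irx2, the antisense RNA Msx1os at Msx1 and B130024G19Rik at Nr2f2.

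The 250 bases upstream of the RefSeq start used for each gene (3 of 3 matched) are shown because these stretches differed in CpG content. They are from GRCm38.p6, a different build from that of the peaks. They are written 5′ to 3′ along the gene with each CpG in capitals. Other starts of these genes were not examined. The CpG content of a stretch thus describes the start used and need not hold for every promoter of its gene. Irx2 lies on the plus strand (chr13:72628570-72628819), Msx1 on the minus strand (chr5:37824586-37824835) and Nr2f2 on the minus strand (chr7:70366747-70366996).
Irx2: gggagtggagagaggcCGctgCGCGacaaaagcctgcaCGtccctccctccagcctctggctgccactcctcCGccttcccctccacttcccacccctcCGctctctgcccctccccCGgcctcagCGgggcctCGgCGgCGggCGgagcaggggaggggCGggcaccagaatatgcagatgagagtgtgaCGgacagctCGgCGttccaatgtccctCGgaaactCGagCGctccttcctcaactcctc
Msx1: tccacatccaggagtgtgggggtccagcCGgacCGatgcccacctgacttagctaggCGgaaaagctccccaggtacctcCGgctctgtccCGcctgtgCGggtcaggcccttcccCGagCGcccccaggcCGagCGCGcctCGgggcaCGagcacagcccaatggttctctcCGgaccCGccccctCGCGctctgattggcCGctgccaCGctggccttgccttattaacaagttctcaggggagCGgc
Nr2f2: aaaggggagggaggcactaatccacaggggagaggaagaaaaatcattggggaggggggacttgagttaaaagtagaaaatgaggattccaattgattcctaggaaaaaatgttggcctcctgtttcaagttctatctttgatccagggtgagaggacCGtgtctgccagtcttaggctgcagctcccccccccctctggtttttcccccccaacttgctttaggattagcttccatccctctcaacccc

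The Irx2 promoter held 19 CpGs at 68.4% GC and the Msx1 promoter held 20 at 68.0% GC, more than 80.3% and 82.1% of the 32851 promoters in the table. The Nr2f2 stretch held 1 CpG at 50% GC, and 7.87% of promoters held fewer. The median promoter had 6. Motifs were searched on both strands, with no motif contained in another. CCAAT occurred once upstream of Irx2, 2 times upstream of Msx1 and 2 times upstream of Nr2f2, and in 33.8% of all promoters. GGGCGG occurred 2 times at Irx2, once at Msx1 and 0 times at Nr2f2, and in 32.7% of promoters. The 7 others had no match in these stretches: TATAAA (in 12.4% of promoters), AGATAA (9.99%), TGTGGT (14%), TGACTCA (4.46%), AGGTCA (14%), TAATTA (4.84%) and CAGCTG (13.0%). Which peak, if any, covers each promoter was not analysed here.

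Accessibility summed over all peaks of a locus was between 2.39 and 2.79 times as high in old as in young HSCs. Levels are in CPM, read counts relative to library depth, after TMM scaling, which sets the libraries to a common effective size. At Irx2 the old libraries, replicates 1 to 4, had 82.0, 91.7, 82.6 and 75.04 CPM, and the young ones 25.4, 32.0, 32.5 and 28.9 CPM. The means were 82.8 ± 6.84 and 29.7 ± 3.27 CPM (SD, n = 4 each), a ratio of 2.79. At Msx1 the old libraries had 135, 114, 133 and 106 CPM and the young ones 43.4, 47.6, 47.8 and 53.9 CPM. The means there were 122 ± 14.3 and 48.1 ± 4.32 CPM, a ratio of 2.54. At Nr2f2 the old libraries had 95.2, 92.1, 102 and 86.6 CPM and the young ones 32.6, 40.4, 42.5 and 41.8 CPM. The means were 93.9 ± 6.30 and 39.3 ± 4.54 CPM, a ratio of 2.39. No old library overlapped a young one at any of the loci.

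**Figure D1:**
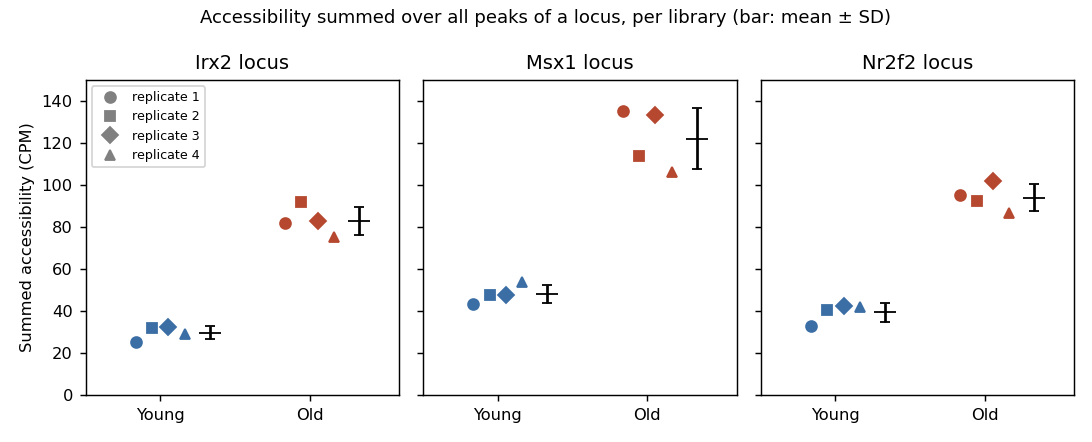
Each symbol is the summed accessibility of a locus (CPM, axis from 0) in 1 library, with a symbol per replicate number; the bars are mean ± SD of 4 libraries. The lowest old library lies above the highest young library at each locus: 75.04 against 32.5 CPM at Irx2, 106 against 53.9 at Msx1 and 86.6 against 42.5 at Nr2f2.

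Old replicate 4 was the lowest old library at all 3 loci, and young replicate 1 the lowest young library. With the young mean set to 0 and that of old replicates 1 to 3 set to 1, old replicate 4 lay at 0.814 for Irx2, 0.734 for Msx1 and 0.83 for Nr2f2. At the 22 peaks of the loci that were called without it, its position on that axis was 0.847 in log2 CPM, against 0.611 over the 10997 peaks called higher in old without it across the genome. The loci were chosen with this library included, so its position at these peaks is not independent of the choice. Without it the log2 ratio of old to young moved from 1.48 to 1.53 at Irx2, from 1.34 to 1.41 at Msx1 and from 1.26 to 1.30 at Nr2f2.

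Per kilobase of peak, the Irx2 locus was the most open of the 3, at 22.5 CPM in old HSCs and 8.06 in young HSCs. Msx1 had 14.6 and 5.76 CPM per kilobase, and Nr2f2 had 11.7 and 4.88. The order of the loci was thus the same in both groups.

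Of the 38 peaks, 27 passed the filter on low counts (edgeR's filterByExpr) and 21 of these were called higher in old, at a Benjamini-Hochberg adjusted p below 0.05 over all 73164 tested peaks in edgeR's quasi-likelihood test. Across the genome 10% of tested peaks were called higher and 10.4% lower, and the loci were chosen on this contrast. None of their tested peaks was called lower. By locus, 5 of 5 tested peaks were called higher at Irx2, 11 of 14 at Msx1 and 5 of 8 at Nr2f2. Without old replicate 4 the called numbers were 5 of 5, 12 of 15 and 5 of 7 tested peaks. Across the genome 10997 peaks were called higher in that fit, against 7352 with all libraries. Of the 27 tested peaks, 9 reached the count minimum in no young library and so passed the filter through the old group alone. The filter asks for that minimum in as many libraries as a group holds. Peaks that reached it in only some young libraries thus also needed old ones. An example is Msx1 peak 16, with 1 count in young replicate 1. Such peaks are not among the 9 and were not counted. The 11 peaks that did not pass held 24 to 86 counts over the 8 libraries.

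Over all 38 peaks, tested or not, the mean was higher in old than in young HSCs at 38, against 47.5% of all deposited peaks. All old libraries lay above all young ones at 26 of the 38, against 8.28% of deposited peaks. Among tested peaks these were 20 of 27, against 10.5% of all tested peaks. The median log2 fold change of the 27 was 1.27, where that of all tested peaks was 0.01.

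**Figure D2:**
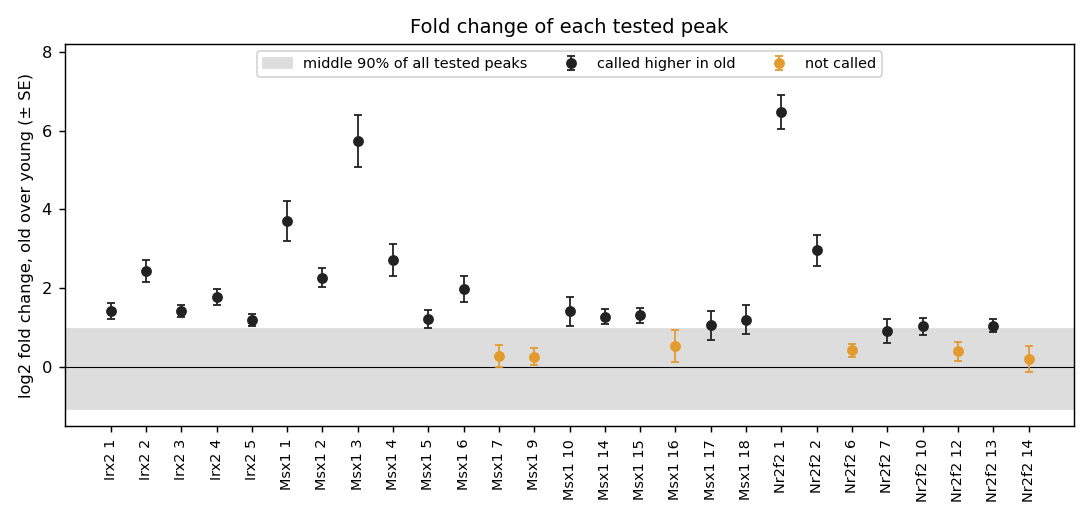
The points are the log2 fold change (old over young, ± SE) of each of the 27 tested peaks, numbered by position within its locus; the grey band holds the middle 90% of all tested peaks, from -1.07 to 0.96. The 6 peaks that were not called lie inside the band, as does the called Nr2f2 peak 7 at 0.91, and the largest changes, 6.47 and 5.74, belong to Nr2f2 peak 1 and Msx1 peak 3.

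At Irx2, a patterning factor of the Iroquois family, the 5 peaks lay within 16762 bases, from 72761170 to 72777932. No other deposited peak lay within 321494 bases before them or 392592 bases after them. All 5 were called higher, and at each of them the old libraries lay above the young ones.

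Peak 2 (72762705 to 72762925) was the narrowest of them, at 220 bases, and had the largest change. It had 8.91, 9.68, 7.84 and 7.44 CPM in old replicates 1 to 4, and 1.63, 0.842, 2.0 and 1.72 CPM in young ones. The old libraries were all more than 3 times the highest young library. Its log2 fold change was 2.45 ± 0.28 (SE), from 151 counts in old and 27 in young HSCs.

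Peak 5 (72776594 to 72777932) was the widest and strongest, and had the smallest change of the locus. It had 23.4, 25.03, 29.5 and 22.3 CPM in old HSCs and 9.33, 13.5, 11.3 and 9.69 CPM in young HSCs. The log2 fold change was 1.19 ± 0.15, and the groups did not overlap. Peak 1 had 15.6 ± 3.57 CPM in old HSCs and 5.82 ± 0.968 in young HSCs (SD, n = 4 each). Peak 3 had 19.6 ± 0.966 and 7.27 ± 1.01 CPM, and peak 4 had 14.2 ± 1.49 and 4.12 ± 0.942 CPM. No single peak carried the locus: the shares of the summed gain ran from 13.0% at peak 2 to 26.6% at peak 5.

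**Figure D3:**
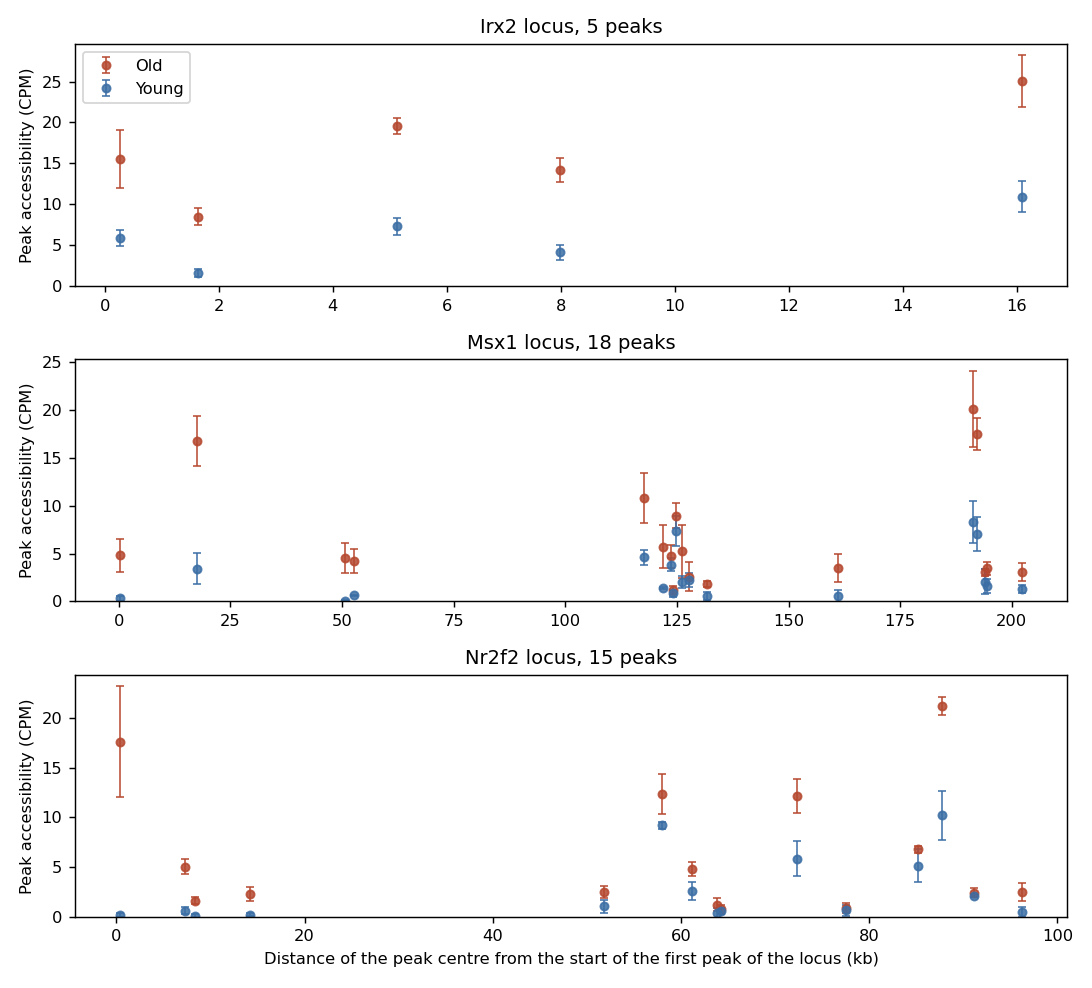
Each point is the mean accessibility of a peak (CPM ± SD, n = 4 libraries) in old and young HSCs, with its centre placed by distance in kb from the start of the first peak of the locus. The groups are well separated at all 5 Irx2 peaks, while at Msx1 and Nr2f2 peaks near 0 in young HSCs stand apart from peaks at which the groups lie close together.

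At Msx1, the BMP-responsive homeobox gene, the 18 peaks were spread over 202637 bases and fell into 5 groups set more than 20000 bases apart, a grouping made after the values were seen. The first 2 groups, 4 peaks from 38090923 to 38143927, had low levels in young HSCs. The pair of peaks from 38090923 to 38109192 summed to 21.6 ± 4.21 CPM in old HSCs against 3.74 ± 1.75 in young HSCs, a ratio of 5.77. The pair from 38141294 to 38143927 summed to 8.77 ± 1.79 against 0.678 ± 0.182 CPM, a ratio of 12.9. All 4 peaks were called higher.

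Peak 3 (38141294 to 38141711) had the largest change at Msx1. It had 6.11, 5.68, 3.23 and 3.10 CPM in old replicates 1 to 4, and 0.233, 0, 0 and 0 CPM in young ones. The young group thus held a single count, in replicate 1, and a count of 0 (3 counts as its limit) allows up to 0.631 to 0.750 CPM in the other young libraries. From 80 counts against 1, the ratio of old to young was 79.2 (exact 95% interval 13.8 to 3168, counting error only). This ratio rests on young replicate 1: the fitted log2 fold change was 5.74 ± 0.66 with all libraries and 7.34 without that one, when every young library is at 0 and the fitted value depends on the prior count. Peak 1 (38090923 to 38091598) had 4.81 ± 1.74 against 0.324 ± 0.270 CPM, a log2 fold change of 3.71 ± 0.50. Peak 2 (38107765 to 38109192), the widest at Msx1 with 1427 bases, had 16.8 ± 2.57 against 3.42 ± 1.61 CPM and alone made 18.1% of the summed gain of the locus.

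The third group, 8 peaks from 38208150 to 38222730, mixed called and uncalled peaks. It summed to 41.0 ± 4.73 CPM in old HSCs and 22.8 ± 1.58 in young HSCs, a ratio of 1.80. Peaks 5, 6 and 10 were called higher, with log2 fold changes of 1.22 ± 0.22, 1.98 ± 0.34 and 1.41 ± 0.38. Between them, peak 9 (38215567 to 38216056) had the smallest change of the tested Msx1 peaks. It had 9.67, 8.2, 10.4 and 7.65 CPM in old HSCs and 7.23, 8.21, 5.25 and 8.83 CPM in young HSCs. The groups overlapped, and the log2 fold change was 0.27 ± 0.21. This peak took 15.3% of the summed young level of the locus and 7.36% of the old level. Peak 7 (38214538 to 38214795) likewise was not called, at 4.73 ± 1.22 against 3.85 ± 0.647 CPM. Peak 10 was called although its groups overlapped: old replicates 1 to 4 had 2.29, 4.0, 6.0 and 8.68 CPM, and the young libraries 1.26 to 2.80 CPM. Peaks 8, 11 and 12 were not tested with all libraries. The groups overlapped at peak 8 (1.14 ± 0.432 CPM in old HSCs, 0.835 ± 0.337 in young HSCs) and at peak 11 (2.59 ± 1.55 and 2.22 ± 0.709). They did not overlap at peak 12 (1.78 ± 0.299 and 0.516 ± 0.417).

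**Figure D4:**
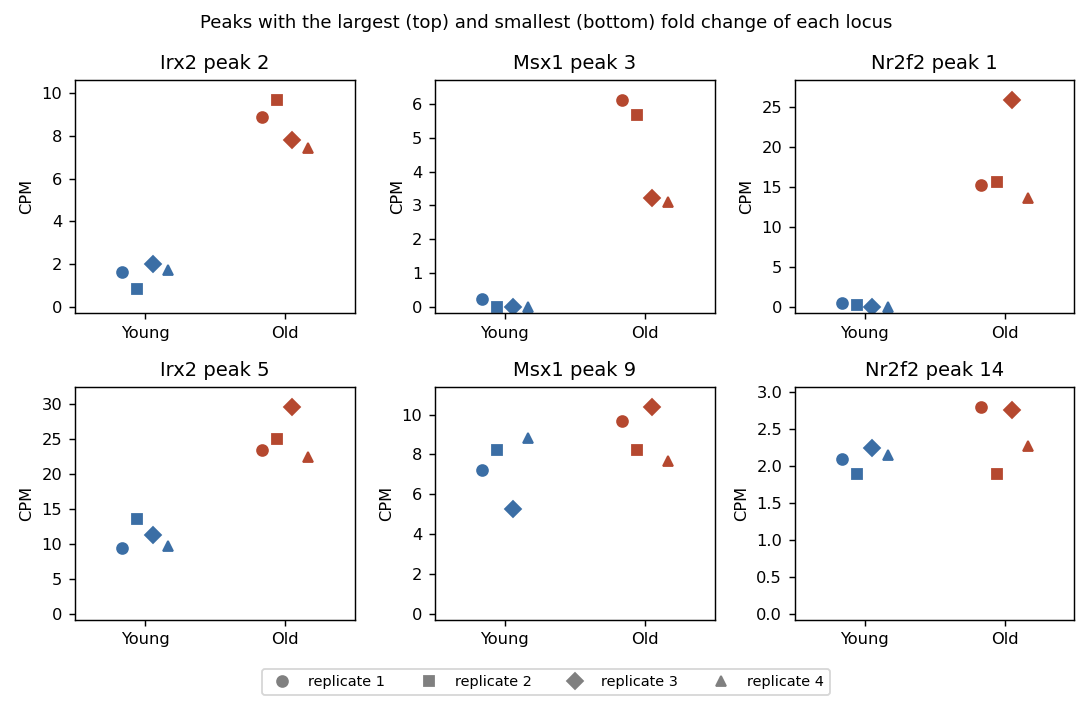
Accessibility (CPM, axes starting near 0) in each library of the tested peak with the largest (top) and the smallest (bottom) fold change of each locus, with a symbol per replicate number. The groups are separate in the top row and at Irx2 peak 5, and overlap at Msx1 peak 9 (7.65 to 10.4 in old, 5.25 to 8.83 CPM in young HSCs) and at Nr2f2 peak 14.

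Beyond this group, Msx1 peak 13 (38251883 to 38252183) stood alone and was not tested with all libraries. It passed the filter in 5 of the 8 fits that left out a library, and was called higher in all 5. It had 3.51 ± 1.45 CPM in old HSCs and 0.592 ± 0.612 in young HSCs, without overlap. The last group, 5 peaks from 38281893 to 38293560, summed to 47.2 ± 6.31 CPM in old HSCs and 20.3 ± 5.09 in young HSCs, a ratio of 2.32, and 4 of the 5 were called higher. It held the strongest peak of the locus, peak 14 (38281893 to 38282445), with 23.7, 18.5, 23.1 and 15.3 CPM in old HSCs and 6.06, 6.73, 10.5 and 9.91 CPM in young HSCs. Old replicate 4 was the lowest old library there, and the groups did not overlap. Its log2 fold change was 1.27 ± 0.19. Peak 15 beside it had 17.5 ± 1.68 and 7.06 ± 1.80 CPM. Peak 16, at 3.02 ± 0.331 against 2.07 ± 1.29 CPM, was not called. Peaks 17 and 18 were called, with log2 fold changes of 1.06 ± 0.37 and 1.21 ± 0.38, but each was called in 2 of the 8 fits that left out a library (peak 18 was tested in 7 of them).

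At Nr2f2, which encodes the nuclear receptor COUP-TFII, the 15 peaks fell into an outlying group of 4 and a main group of 11 set 37026 bases apart, also a grouping made after the values were seen. The outlying group, from 77418788 to 77433195, summed to 26.5 ± 5.46 CPM in old HSCs and 1.11 ± 0.330 CPM in young HSCs, a ratio of 23.9. At each of its 4 peaks the old libraries lay above the young ones, and both tested peaks were called higher. The main group, from 77470221 to 77515227, summed to 67.4 ± 2.08 and 38.2 ± 4.49 CPM, a ratio of 1.76, and 3 of its 6 tested peaks were called higher.

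Peak 1 (77418788 to 77419597) had the largest fold change of the 3 loci. It had 15.3, 15.6, 25.8 and 13.6 CPM in old replicates 1 to 4, and 0.466, 0.210, 0 and 0 CPM in young ones. Old replicate 3 was highest, and all old libraries were far above the young ones. The peak held 312 counts in old and 3 in young HSCs, a ratio of 103 (exact 95% interval 34.9 to 502, counting error only). Its log2 fold change was 6.47 ± 0.44, and 7.42 without young replicate 1, which holds 2 of the 3 young counts. It alone made 31.9% of the summed gain of the locus, having held 0.430% of the young sum. Peak 2 (77425597 to 77426485) had 5.05 ± 0.711 against 0.617 ± 0.360 CPM, a log2 fold change of 2.96 ± 0.39. Peak 3 was not tested and had 29 counts in old and 2 in young HSCs, all of the young ones in replicate 4. The ratio was 14.4 (exact 95% interval 3.63 to 124, counting error only). Peak 4, also not tested, had 2.28 ± 0.732 against 0.219 ± 0.176 CPM.

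In the main group of Nr2f2, peak 13 (77505892 to 77507113) was the strongest, with 21.4, 21.5, 21.9 and 19.8 CPM in old HSCs and 7.0, 9.47, 11.8 and 12.5 CPM in young HSCs. The old libraries lay close together and above every young one. Its log2 fold change was 1.05 ± 0.16. Peak 10 (77490800 to 77491509) had 12.1 ± 1.70 against 5.85 ± 1.76 CPM and was called higher. Peak 7 (77479839 to 77480145), at 4.79 ± 0.684 against 2.56 ± 0.904 CPM, was called with all libraries and in 4 of the 8 fits that left out a library.

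Interspersed with these were tested peaks that were not called. Peak 6 (77476404 to 77477206), the second strongest in young HSCs with 23.4% of the young sum, had 12.3 ± 2.04 CPM in old HSCs and 9.21 ± 0.357 in young HSCs. Its log2 fold change of 0.42 ± 0.18 was not called with all libraries, and was called in 1 of the 8 fits that left out a library. Peak 12, only 1673 bases from the called peak 13, had 6.78 ± 0.385 against 5.14 ± 1.69 CPM and was not called. Peak 14 (77509851 to 77510067) had 2.80, 1.89, 2.77 and 2.27 CPM in old HSCs and 2.10, 1.89, 2.25 and 2.15 CPM in young HSCs. The groups overlapped there, with a log2 fold change of 0.20 ± 0.33. The 5 untested peaks of the main group had 0.752 to 2.49 CPM in old HSCs and 0.384 to 1.05 CPM in young HSCs.

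Sorted by young level, 14 of the 38 peaks had a young mean under 1 CPM, with old-to-young ratios from 1.29 to 104 and a median of 6.38. Another 14 lay at 1 to 5 CPM, with ratios from 1.16 to 5.47 and a median of 2.35. The remaining 10 had 5 CPM or more, with ratios from 1.22 to 2.69 and a median of 2.19. The young level enters both the sorting and the ratio, so the ratios are not independent of the sorting. In absolute terms the order was the other way round: the 10 peaks strongest in young HSCs made 45.2% of the summed gain and the 14 weakest there made 25.1%. Those 14 include Nr2f2 peak 1, which had a mean of 17.6 CPM in old HSCs. Of the 27 tested peaks 5 had a young mean under 1 CPM (18.5%), against 0.641% of all tested peaks. A peak with so low a young mean passes the filter only with old libraries at the count minimum. The loci were also chosen as more open in old HSCs, so these shares are not independent of the filter or the choice.

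**Figure D5:**
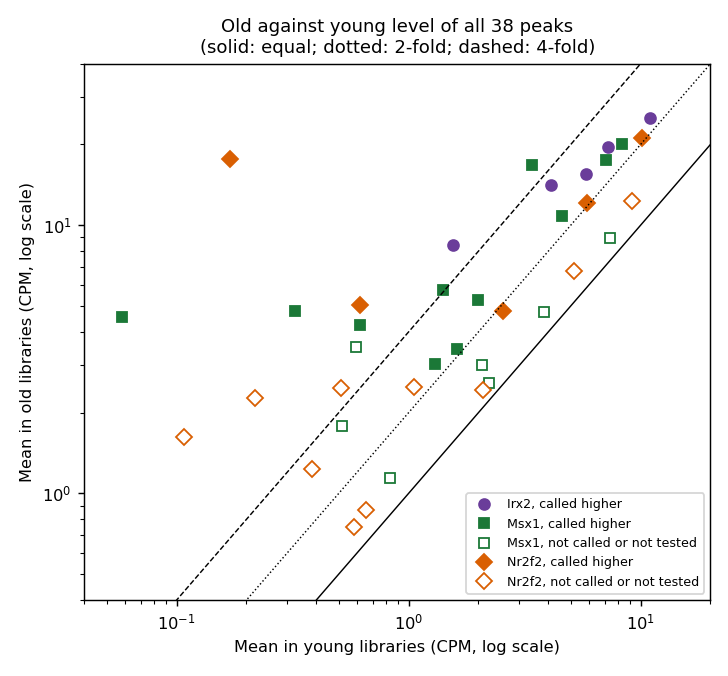
Mean accessibility in old against young libraries (CPM, both axes on a log scale) for all 38 peaks, with lines for equal levels, 2-fold and 4-fold; filled symbols were called higher in old. All 38 peaks lie above the line of equal levels, 7 of the tested ones have a fitted change over 4-fold, and the spread narrows to about 1.22 to 2.69 times where the young mean is 5 CPM or more.

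The peaks sat in thinly populated stretches. Within 250000 bases there were 4 further deposited peaks around each Irx2 peak, 18 to 27 around those of Msx1 and 16 to 18 around those of Nr2f2, where the median tested peak of the genome had 46. The 27 tested peaks had a median width of 552 bases, against 620 bases for all tested peaks. The spread between libraries in log2 CPM had a median SD of 0.23 in old and 0.36 in young HSCs at the 27 tested peaks, and of 0.26 and 0.25 over all tested peaks. The 2 sets also differ in level, on which the loci were chosen. The median was 8.47 CPM in old and 3.42 in young HSCs at the 27, against 6.36 and 6.52 over all tested peaks. The spread was not compared at equal levels.

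Spans of the same length directly before and after each locus were set beside it. Those around Irx2 and the one before Msx1 held no peak. The span after Msx1 held 9 peaks, which summed to 35.5 ± 4.07 CPM in old HSCs and 35.4 ± 3.28 CPM in young HSCs, and none of the 3 tested ones was called. The span before Nr2f2 held 3 peaks too weak to test, with 93 counts in old and 9 in young HSCs, or 5.27 ± 1.12 against 0.504 ± 0.263 CPM. The old libraries lay above the young ones at all 3. The span after Nr2f2 held 1 peak, with 38 and 7 counts. The first peak after the last Msx1 member (38309266 to 38310023) crossed the edge of the span and was left out by the rule, with 2.64 ± 1.44 against 1.29 ± 0.517 CPM. The nearest peak before the Msx1 span (37729247 to 37730175) lay 360748 bases from the first member and was itself called higher, at 14.6 ± 2.31 against 4.23 ± 1.27 CPM.

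Pearson correlations of the log2 levels of the 3 loci over the 8 libraries were 0.976 (Irx2 with Msx1), 0.991 (Irx2 with Nr2f2) and 0.991 (Msx1 with Nr2f2), from points that share the libraries and the gap between the groups on which the loci were chosen. Within a group the order of the libraries differed between the loci, apart from the lowest one. Among 13048 other windows of 100000 bases with at least 10 CPM, the most alike to Irx2 was the window on chromosome 4 from 120300001 to 120400000 (r = 0.995), followed by chromosome 15 from 56500001 to 56600000 (r = 0.993). For Msx1 they were chromosome 3 from 7500001 to 7600000 (r = 0.993) and the X chromosome from 108000001 to 108100000 (r = 0.992). For Nr2f2 they were chromosome 8 from 91500001 to 91600000 and chromosome 19 from 19100001 to 19200000 (r = 0.994 for both). The sizes of change differed: the window on the X chromosome had 21.7 ± 3.70 CPM in old HSCs against 2.84 ± 0.642 in young HSCs, and that on chromosome 3 had 38.3 ± 1.24 against 32.8 ± 0.596 CPM.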

How the data were processed

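The authors deposited whole-number read counts per peak over 1 peak set shared by the 8 ATAC-seq libraries, without normalization. Per the submitters' processing notes, the tools were MACS2 and Bowtie2, with Trim Galore, SAMtools, Picard and FastQC, on build mm9, without versions. How peaks were merged, which program counted reads and whether read ends were shifted is not given in the sources used here, and these can move the level of a peak. Coordinates and widths follow the table.

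Peaks were kept with filterByExpr by group (minimum count 10, minimum total 15), leaving 73164 of 126871 peaks and 94.2% of counts. CPM used TMM scaling, and log2 CPM had a prior count of 2. The groups were contrasted in edgeR 4.0.16 under R 4.3.3 (robust quasi-likelihood fit, group only) over the whole table, with Benjamini-Hochberg adjustment; the SE was taken from the F statistic. The procedure was run on simulated data, and the outcome is not given here. Changes as large as those at Msx1 peak 3 and Nr2f2 peak 1 were not simulated. Chi-square per peak between libraries of a group was at least 1.19, so no library was a copy of another. This value cannot tell technical replicates of a sample from separate samples. Summed CPM covers all peaks inside a span.

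The loci, lists and rules were chosen with earlier results of these data known. Named peaks are, per locus, the strongest in old and those with the largest, smallest and nearest-to-0 log2 fold change, with windows ranked by correlation; other peaks were described after their values were seen. Alternatives were DESeq2 1.42.0 size factors and its test, total count scaling, no filter, an adjusted p below 0.01, a replicate block, wider spans, tested peaks only, equal weight per peak and each library left out in turn. Other members of these gene families, and cell type markers, were not analysed here.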

Additional observations from a re-analysis of the deposited data

Results flagged for a closer look

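In 82 groups of 4 values, a library lay far from the other 3 in 5, where chance gives about 1 in 20, or 4.1. At Nr2f2 peak 1, old replicate 3 was the highest with 25.8 CPM, against 13.6 to 15.6 in the other old libraries. At Msx1 peak 15, old replicate 3 was the highest with 20.1 CPM, against 16.5 to 16.8. The other cases were young libraries at low counts: young replicate 3 at Msx1 peak 13 (1.5 CPM from 6 counts, the others at most 0.421 CPM), young replicate 1 at Msx1 peak 3 (0.233 CPM from 1 count) and young replicate 4 at Nr2f2 peak 3 (0.431 CPM from 2 counts), with all other young libraries at 0 counts in the last 2 cases.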

How the results depend on the processing

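All 92 recomputed fold changes of the named peaks kept their direction and their side of the threshold. Nr2f2 peak 14 passed the filter, and so was recomputed, in only 4 of the 8 fits that left out a library. Without young replicate 1 the fold changes of Msx1 peak 3 and Nr2f2 peak 1 moved from 5.74 to 7.34 and from 6.47 to 7.42 on the log2 scale. Of the values of the loci, 80 kept their direction and side, with counts within 1.5 times. The 1 exception was the number of Nr2f2 peaks called higher, which was 8 with no count filter against 5 (15 of its peaks tested against 8). Leaving out each library gave log2 ratios of 1.41 to 1.53 at Irx2, 1.30 to 1.41 at Msx1 and 1.18 to 1.30 at Nr2f2, and 5, 9 to 12 and 4 to 6 peaks called higher. Of the 21 called peaks, 18 were called in all 8 of these fits. With the replicate block the calls were 5, 11 and 5; same-numbered libraries deviated together by r = -0.014, 0.0737, 0.0495 and 0.179, and 2 of 4 old libraries correlated best with their own number, so the numbers were not taken to pair them. The 11 peaks left out by the filter had at most 86 counts each, which limits the precision of their ratios. With no filter 13 of 18 Msx1 peaks were called higher, and the share of all peaks called in that fit is not given here. Some alternatives gave fewer calls at Msx1 and Nr2f2. These were 8 and 4 at an adjusted p below 0.01, 9 and 4 with the DESeq2 test, and 10 and 5 with total count scaling. Irx2 kept 5 calls in each.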
